A study of Mus musculus with 8 samples.

Results

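Type 1 conventional dendritic cells (cDC1) are the dendritic cells that are best known for taking up dead cells and showing their antigens on MHC class I to CD8 T cells, which is called cross-presentation. In the mouse spleen they are set apart from type 2 conventional dendritic cells by XCR1, CLEC9A and the alpha chain of CD8 on their surface, and they need the transcription factors BATF3, IRF8 and ID2. The 10 genes described here, Batf3, Id2, Xcr1, Clec9a, Cadm1, Tlr3, Wdfy4, Cd8a, Naaa and Ly75, were chosen by name as identity and cross-presentation genes of these cells, and all 10 were among the 13786 protein-coding genes measured.

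RNA was sequenced from CD11c-positive splenocytes of 7-week-old female mice without treatment, 4 of the strain C57BL/6 and 4 of B6.SLE123. B6.SLE123 is a lupus-prone congenic strain, which is C57BL/6 carrying the Sle1, Sle2 and Sle3 susceptibility intervals in every cell, so a strain difference cannot be assigned to 1 interval or cell type. The libraries are numbered within a strain and no label says that each came from a separate animal. They are called mice here, and the p-values measure the spread between them. CD11c is also carried by macrophages and other leukocytes, and in bulk RNA more cells of a type cannot be told apart from more RNA per cell.

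The counts of a mouse summed to between 25563070 and 37367094, and a single member had between 1532 and 133906 counts, so counting error was small beside the spread between mice. Levels are given as CPM, the counts of a gene relative to the total of its library, after scaling of the libraries by trimmed mean of M-values (TMM), and fold changes as B6.SLE123 over C57BL/6. All 11 genes of a list for conventional dendritic cells in general were detected in each mouse, among them Itgax, which encodes CD11c, and Flt3, the receptor for the growth factor of these cells. The mice also carried macrophage RNA. The summed level of 14 red pulp macrophage genes was between 13575 and 17478 CPM in C57BL/6 and between 1965 and 3865 CPM in B6.SLE123, with no gene at 0, and its part in the results below was not tested.

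Of the 10 members, 8 were higher in B6.SLE123, 1 was lower and 1 did not pass the test (edgeR adjusted p below 0.05 over all genes). Of all genes tested, 26.7% were called higher and 26.6% lower, or 53.4% in either direction. Xcr1, Naaa and Ly75 were the 3 members called higher by more than 2-fold, where 2.76% of all genes were. The median log2 fold change of the members was 0.84, beside -0.002 over all genes. The 4 values of each strain did not overlap for 7 members, all of them higher in B6.SLE123, and 24.4% of all genes had the same separation.

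**Figure D1:**
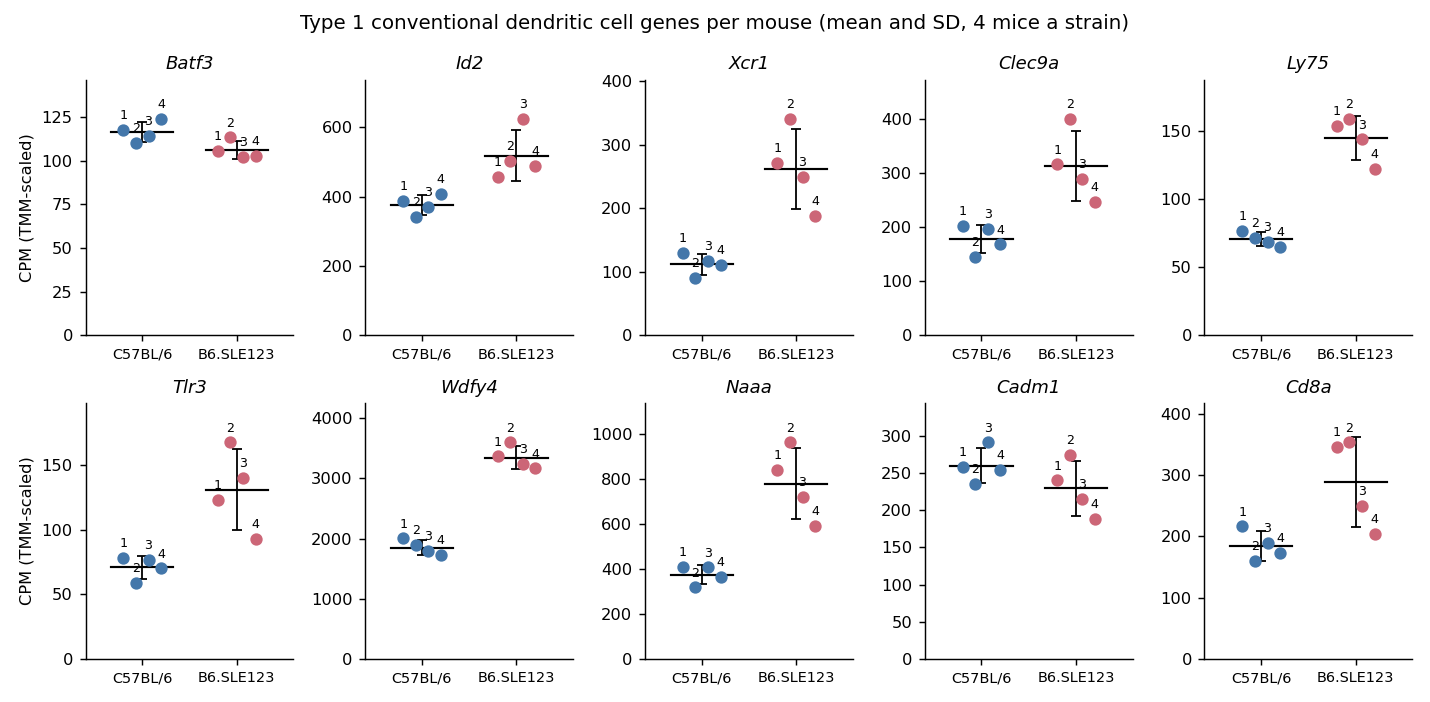
Level of each of the 10 genes in each mouse, in TMM-scaled CPM on axes that start at 0, with the replicate number above each point, the strain mean as a bar and the SD as a whisker (n = 4 mice a strain). All B6.SLE123 points lie above all C57BL/6 points for Id2, Xcr1, Clec9a, Ly75, Tlr3, Wdfy4 and Naaa, whereas the strains overlap for Batf3, Cadm1 and Cd8a.

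The start sites of 3 members are shown: Xcr1 rose most, Batf3 was the 1 member called lower, and Cd8a, which also rose, alone held a composite site of the kind described next. Each is 250 bases before to 50 bases after the start in RefSeq (GRCm38.p6), which gave a window for 9 of the 10 members. Each is written 5′ to 3′ along the gene, and capitals mark matches to the motifs searched.
Xcr1 (chr9:123861980-123862279, minus strand): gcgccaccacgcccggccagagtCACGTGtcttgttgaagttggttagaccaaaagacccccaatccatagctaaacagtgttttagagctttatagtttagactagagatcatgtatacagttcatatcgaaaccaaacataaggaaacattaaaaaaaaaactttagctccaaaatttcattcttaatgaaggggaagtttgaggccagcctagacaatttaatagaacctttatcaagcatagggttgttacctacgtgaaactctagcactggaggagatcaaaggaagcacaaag
Cd8a (chr6:71373177-71373476, plus strand): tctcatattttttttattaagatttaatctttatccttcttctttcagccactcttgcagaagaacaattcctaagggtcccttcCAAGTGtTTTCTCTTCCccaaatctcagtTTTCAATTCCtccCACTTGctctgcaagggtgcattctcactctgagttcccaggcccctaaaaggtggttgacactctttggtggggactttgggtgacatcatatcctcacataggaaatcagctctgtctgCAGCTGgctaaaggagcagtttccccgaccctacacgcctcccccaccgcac
Batf3 (chr1:191098164-191098463, plus strand): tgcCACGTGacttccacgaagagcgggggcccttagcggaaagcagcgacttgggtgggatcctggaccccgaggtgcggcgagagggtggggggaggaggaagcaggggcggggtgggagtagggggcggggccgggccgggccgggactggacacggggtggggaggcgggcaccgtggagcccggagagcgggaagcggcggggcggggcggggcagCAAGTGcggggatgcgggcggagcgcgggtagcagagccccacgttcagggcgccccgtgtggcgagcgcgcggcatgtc

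The motifs, searched on both strands, were those of the factors that direct these cells. BATF proteins pair with JUN proteins on AP-1 sites, TGANTCA, which stood in 7.81% of the 32851 RefSeq windows and in 0 of the 9 members. The pair joins IRF4 or IRF8 on a composite of the AP-1 letters, 4 bases of any kind and GAAA, which stood in 0.119% of all windows and in 0 members. The doubled IRF site, GAAA and GAAA with 2 bases of any kind between them, stood in 3.44% of windows and the PU.1 site GAGGAAGT in 3.2%, each in 0 members. The composite of an ETS factor such as PU.1 and an IRF, GGAA and GAAA with 2 bases of any kind between them, whose letters can overlap the PU.1 site, stood in 2.72% of windows and in 1 member. That member was Cd8a, with matches from -158 to -149 and from -136 to -127 relative to the start, both read on the opposite strand. E-boxes, CANNTG, are bound by the E proteins that ID2 holds back, and stood in 6 of the 9 members and in 72.3% of windows. A match is a run of letters and not a measured binding site.

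The windows also differed in base composition. The Batf3 window was 75.7% G or C and held 34 CpG dinucleotides, whereas those of Xcr1, Cd8a and Clec9a were 40.0%, 46.7% and 37.0% G or C with 6, 3 and 1 CpG. The median over all windows was 52.7% and 7 CpG. Ly75 and Id2, with 21 CpG each and 67.0% and 63.3% G or C, resembled Batf3 in this and were higher in B6.SLE123.

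Batf3 and Id2 encode the transcription factors of the list. BATF3 is the AP-1 family factor without which cDC1 are largely missing from the mouse. Batf3 (ENSMUSG00000026630.9, mm10 chr1:191097847-191108945, plus strand) was at 117, 110.3, 114 and 124 CPM in C57BL/6 mice 1 to 4 and at 106, 113, 102 and 103 CPM in B6.SLE123 mice 1 to 4. B6.SLE123 mouse 2 lay among the low C57BL/6 values and the other three lay below them all. The means were 117 ± 5.80 and 106 ± 5.18 (SD, n = 4), a log2 fold change of -0.14 (SE 0.05, edgeR adjusted p = 0.0384). This call was lost in 6 of the 8 fits without 1 mouse, all but those without C57BL/6 mouse 2 or B6.SLE123 mouse 2, with adjusted p between 0.0130 and 0.0923 over the 8.

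Id2 (ENSMUSG00000020644.9, chr12:25093799-25097140, minus strand) encodes an inhibitor that binds E proteins and keeps them off DNA, which favours conventional over plasmacytoid dendritic cells. Its level was 387, 341, 370.3 and 407 CPM in C57BL/6 and 456, 503, 625 and 489.7 CPM in B6.SLE123. The strains did not overlap, and mouse 3 was the highest of B6.SLE123. The means of 376 ± 28.1 and 519 ± 73.9 (SD, n = 4) gave a log2 fold change of 0.46 (SE 0.09, edgeR adjusted p = 0.00145), the smallest rise among the 8 members that rose.

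Xcr1, Clec9a and Ly75 encode receptors on the cell surface. XCR1 is the chemokine receptor that marks cDC1 and answers XCL1 made by T and NK cells. Xcr1 (ENSMUSG00000060509.5, chr9:123852315-123862029, minus strand) was at 129.6, 89.7, 117 and 110.4 CPM in C57BL/6 and at 271, 341, 249 and 188 CPM in B6.SLE123. The lowest B6.SLE123 mouse, mouse 4, was above the highest C57BL/6 mouse. From a mean of 112 ± 16.7 to 262 ± 63.2 CPM (SD, n = 4), the log2 fold change was 1.23 (SE 0.16, edgeR adjusted p = 8.44e-05), the largest of the 10. The window shown above for this gene held an E-box as its 1 match.

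CLEC9A is the lectin that recognises actin filaments exposed by dead cells. Clec9a (ENSMUSG00000046080.17, chr6:129408862-129424763, plus strand) was at 202, 145, 196 and 168 CPM in C57BL/6 and at 316, 400.2, 289 and 247 CPM in B6.SLE123, without overlap. This was a log2 fold change of 0.82 (SE 0.14, edgeR adjusted p = 0.000593). Clec9a shares its first bases, in the coordinates of the count table, with Clec1b on the same strand, so reads there are uncertain. Clec1b had a mean of 45.7 CPM in C57BL/6 and 8.71 CPM in B6.SLE123, the opposite direction.

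LY75, also called DEC-205, is an endocytic receptor of cDC1 that delivers what it binds to antigen presentation. Ly75 (ENSMUSG00000026980.15, chr2:60292103-60383303, minus strand) was at 77.0, 71.4, 68.8 and 64.7 CPM in C57BL/6 and at 154, 159, 144 and 122.6 CPM in B6.SLE123. The strains were far apart compared with their spread, with SDs of 5.16 and 16.3 CPM around means of 70.5 and 145 CPM (n = 4), which gave a log2 fold change of 1.04 (SE 0.08, edgeR adjusted p = 2.22e-06). The gene has an antisense transcript, Gm13571, and the source of its reads by strand is not known.

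Tlr3 and Wdfy4 act inside the cell. TLR3 is the endosomal sensor of double-stranded RNA, and WDFY4 is needed by cDC1 to cross-present antigens from cells. Tlr3 (ENSMUSG00000031639.12, chr8:45395665-45411080, minus strand) was at 78.2, 58.8, 76.3 and 69.9 CPM in C57BL/6 and at 123.02, 167, 140.2 and 92.6 CPM in B6.SLE123. Its values did not overlap but came close, with mouse 4 the lowest of B6.SLE123, and Tlr3 had a log2 fold change of 0.89 (SE 0.15, edgeR adjusted p = 0.000615). An antisense transcript, Gm45542, overlaps the gene.

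Wdfy4 (ENSMUSG00000051506.17, chr14:32959547-33185508, minus strand) was at 2001, 1887, 1792 and 1723 CPM in C57BL/6 and at 3365, 3599, 3246 and 3165 CPM in B6.SLE123. The spread was 121 CPM around a mean of 1851 in C57BL/6 and 189 CPM around 3344 in B6.SLE123 (SD, n = 4), small beside the gap between the strains. The log2 fold change of 0.85 (SE 0.06) had the lowest edgeR adjusted p of the 10 members, 1.21e-06. Lrrc18, which lies within it on the other strand, was at a mean of 3.02 CPM in C57BL/6 and 4.99 CPM in B6.SLE123.

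Naaa (ENSMUSG00000029413.14, chr5:92257659-92278170, minus strand) encodes the lysosomal amidase that breaks down palmitoylethanolamide and is a known transcript mark of cDC1. It was at 408, 317, 406 and 365 CPM in C57BL/6 and at 839.5, 961, 720.4 and 591 CPM in B6.SLE123. The strains did not overlap, and mouse 2 was again the highest and mouse 4 the lowest of B6.SLE123. The log2 fold change was 1.06 (SE 0.13, edgeR adjusted p = 6.96e-05).

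Cadm1 (ENSMUSG00000032076.20, chr9:47530173-47858115, plus strand) encodes the adhesion molecule of cDC1 that binds CRTAM on activated T cells. It was the member that did not pass the test. Its level was 259, 236, 291 and 255 CPM in C57BL/6 and 240.3, 274, 215 and 188 CPM in B6.SLE123, with overlap. The log2 fold change was -0.18 with a 95% interval from -0.41 to 0.05 (edgeR adjusted p = 0.165). Without B6.SLE123 mouse 2, the highest of its strain, it was -0.29 (edgeR adjusted p = 0.0221). Its whole interval, like that of Batf3 (-0.25 to -0.03), lay below the lowest interval among the 8 members that rose, that of Id2 (0.26 to 0.66), but differences between members were not tested.

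Cd8a (ENSMUSG00000053977.13, chr6:71373427-71379173, plus strand) encodes the CD8 alpha chain, which splenic cDC1 carry as a homodimer and CD8 T cells as a pair with the beta chain of Cd8b1. It was at 216, 160.0, 189 and 173 CPM in C57BL/6 and at 346, 353, 249.9 and 203 CPM in B6.SLE123. B6.SLE123 mouse 4 lay below C57BL/6 mouse 1, and the other three lay above all C57BL/6 mice. The log2 fold change was 0.64 (SE 0.16, edgeR adjusted p = 0.00629). Cd3e and Cd8b1 were much lower than Cd8a, whereas Cd4, which some dendritic cells and macrophages also express, was at 258 ± 24.2 CPM in C57BL/6 and 296 ± 42.5 CPM in B6.SLE123. Cd3e, a chain of the T cell receptor complex, was at 4.13 ± 0.93 CPM in C57BL/6 and 2.93 ± 0.89 in B6.SLE123, with a log2 fold change of -0.49 that missed the threshold (edgeR adjusted p = 0.0990) and was called lower at -0.68 under the dendritic scaling described below (edgeR adjusted p = 0.0280). Cd8b1 was at 5.75 ± 0.89 and 5.04 ± 1.19 CPM (SD, n = 4; log2 fold change -0.19, edgeR adjusted p = 0.355).

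The mice kept much the same order from gene to gene. In B6.SLE123, mouse 2 had the highest level for 9 of the 10 members and mouse 4 the lowest for 8. In C57BL/6, mouse 1 was highest for 7 members and mouse 2 lowest for 8. The coefficient of variation between mice was between 4.98% and 14.9% in C57BL/6 and between 4.89% and 25.5% in B6.SLE123, and it was larger in B6.SLE123 for 8 members. The summed level of the members was 6216, 6873, 5981 and 5391 CPM in B6.SLE123 mice 1 to 4. The summed red pulp macrophage level stood in the reverse order in that strain, at 2586, 1965, 3487 and 3865 CPM in mice 1 to 4. It did not do so in C57BL/6, at 15239, 13575, 17478 and 15237 CPM, where mouse 2 was lowest for most members and for the macrophage sum. The part of macrophage RNA in the order of the mice was not tested.

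To compare levels between genes, CPM was divided by the exonic length in kilobases (RPKM). In C57BL/6 the order was Wdfy4 (175 RPKM), Id2 (154), Naaa (101), Batf3 (73.0), Clec9a (53.9), Cd8a (50.8), Xcr1 (25.1), Cadm1 (24.9), Tlr3 (13.6) and Ly75 (10.2). The ranges of Wdfy4 and Id2, of Clec9a and Cd8a, and of Xcr1 and Cadm1 overlapped over the 4 mice, so these neighbours were not separated. In B6.SLE123 Wdfy4 (317 RPKM) was above Id2 (213) and Naaa (209), which overlapped. Then came Clec9a (95.1), Cd8a (79.2), Batf3 (66.4) and Xcr1 (58.9), each overlapping the next, and Tlr3 (25.1), Cadm1 (22.0) and Ly75 (21.0), which overlapped too. Batf3 thus stood at rank 4 in C57BL/6 and at rank 6 in B6.SLE123, among receptors that it exceeded in C57BL/6.

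The CPM values of a library share 1 total, so the members were also fitted with the libraries scaled to the list for conventional dendritic cells in general. Of the 11 genes of that list, 9 were called higher and 1 lower under TMM scaling, the lower one being Napsa at -1.47. A scaling without Napsa was not run, so how far the calls rest on it was not tested. Under the scaling to all 11 genes the median of all genes moved by -0.20 on the log2 scale. The same 8 members were called higher, with log2 fold changes from 0.26 for Id2 to 1.03 for Xcr1 and a median over the 10 members of 0.63, where 10.4% of all genes were called higher and 56.4% in either direction. Batf3 was called lower at -0.34 (edgeR adjusted p = 0.000194) and Cadm1 was now called lower at -0.39 (edgeR adjusted p = 0.00820), where 46.1% of all genes were called lower.

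**Figure D2:**
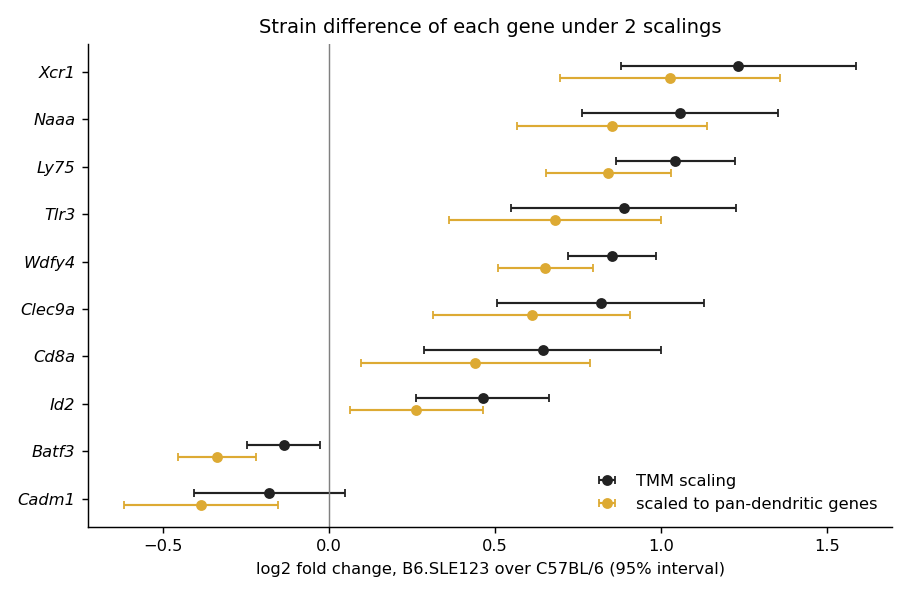
Log2 fold change of each gene, B6.SLE123 over C57BL/6, with its 95% interval, under TMM scaling (black) and with libraries scaled to genes of conventional dendritic cells in general (yellow). The intervals of 8 genes lie above 0 under both scalings, and those of Batf3 lie below 0, whereas that of Cadm1 spans 0 only under TMM scaling.

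Ratios of 2 genes within a mouse need no scaling. The ratio of Xcr1 to Flt3 was between 0.186 and 0.273 in C57BL/6 and between 0.315 and 0.544 in B6.SLE123. On the log2 scale it was -2.07 ± 0.26 and -1.26 ± 0.33 (SD, n = 4), a difference of 0.82 (exact two-sided permutation p = 0.0286, the smallest that 4 mice against 4 allow, and 0.0429 adjusted over the 3 ratios). The ratio of Clec9a to Flt3 was -1.40 ± 0.27 and -0.99 ± 0.26 on the log2 scale, and its difference of 0.41 missed the threshold (exact two-sided permutation p = 0.0857, adjusted p = 0.0857). Against Zbtb46, another gene of conventional dendritic cells, the difference for Clec9a was 0.49 (exact permutation p adjusted over the ratios = 0.0286). Cd8a was between 34.2 and 58.7 times Cd3e in C57BL/6 and between 73.4 and 185 times in B6.SLE123. That log2 difference was 1.13 (exact two-sided permutation p = 0.0286, adjusted p = 0.0429). No ratio could pass without 1 mouse, since 3 against 4 allows no p below 0.0571.

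**Figure D3:**
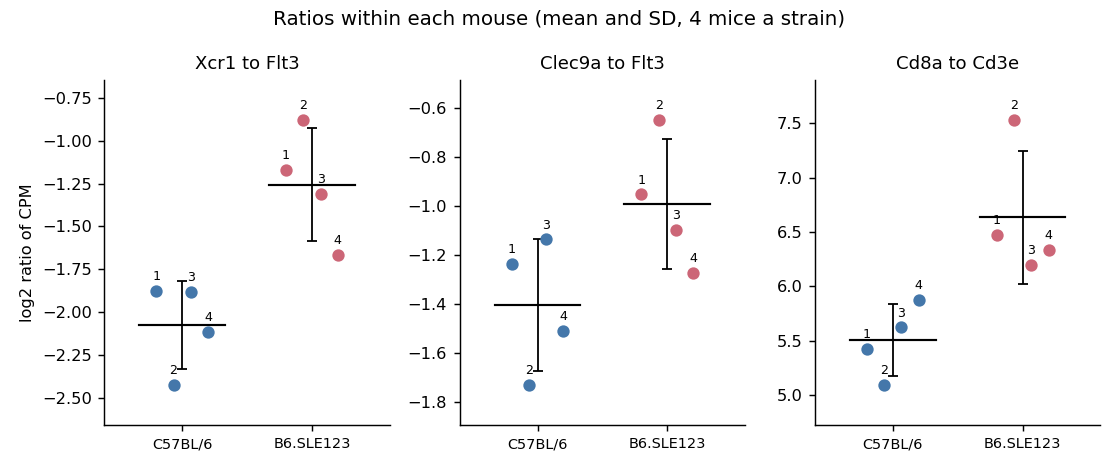
Log2 ratio of CPM of Xcr1 to Flt3, Clec9a to Flt3 and Cd8a to Cd3e in each mouse, with the replicate number above each point, the strain mean as a bar and the SD as a whisker (n = 4 mice a strain); each panel has its own axis. The strains do not overlap for Xcr1 to Flt3 or Cd8a to Cd3e and overlap for Clec9a to Flt3.

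Other genes of cDC1 moved much as the members did. Of 21 such genes, 17 were called higher and 1 lower, at a median of 0.79 on the log2 scale, and 15 higher and 2 lower under the dendritic scaling. Cd207, which encodes the lectin langerin found on some splenic cDC1, rose from 14.1 ± 2.84 to 175 ± 39.3 CPM (SD, n = 4; log2 fold change 3.62, SE 0.19, edgeR adjusted p = 2.65e-07). Itgae, the integrin chain CD103, rose by 1.42 (SE 0.19) and the receptor gene Gpr33 by 1.35 (SE 0.28), the latter from a mean of 3.19 CPM. Ppt1, a lysosomal thioesterase, rose from 658 ± 77.6 to 1375 ± 242 CPM (log2 fold change 1.06, edgeR adjusted p = 3.28e-05). Plpp1, a lipid phosphatase, was the gene that fell, by 0.53 on the log2 scale (edgeR adjusted p = 0.00468). Pianp, Tlr12 and Fkbp1b did not pass, at -0.26, -0.04 and 0.23, and Pianp was called lower at -0.46 under the dendritic scaling (edgeR adjusted p = 0.0289).

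Irf8, the partner of BATF3, stands in the same list. It was at 708 ± 68.6 CPM in C57BL/6 and 987 ± 171 CPM in B6.SLE123 (SD, n = 4; log2 fold change 0.48, SE 0.12, edgeR adjusted p = 0.00514). The call was lost with the libraries scaled to dendritic cell genes in general, at 0.28 (edgeR adjusted p = 0.0674). Irf4, the related factor of type 2 cells that can also pair with BATF proteins, had a log2 fold change of 0.07 (edgeR adjusted p = 0.509). Of 12 factors known to act in the development of cDC1, 9 were called higher and 1 lower, with a median of 0.20, but 3 higher and 1 lower under the dendritic scaling. The corepressor Cbfa2t3 and the NF-kappaB subunit Relb, the most abundant of them, had 0.22 and 0.32 (edgeR adjusted p = 0.000862 and 0.00216), neither of them called under that scaling. Zeb2 was the factor called lower, from 179 ± 20.9 to 80.0 ± 10.7 CPM (SD, n = 4; log2 fold change -1.16, edgeR adjusted p = 6.08e-06). Under the dendritic scaling it was at -1.36 (edgeR adjusted p = 1.22e-06). Irf8 and Cbfa2t3 overlap Gm20388 and Ppt1 overlaps Cap1. Itgae overlaps Haspin, Plpp1 overlaps Mtrex and Zeb2 overlaps Zeb2os, so part of the reads of all these genes is uncertain.

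Genes for what the members bind or work with, apart from Irf8 above, mostly did not share the rise. Of 14 other partners of the members' products, 1 was called higher and 5 lower, at a median of -0.27 on the log2 scale, and 1 higher and 10 lower under the dendritic scaling. The 1 called higher was Ticam1, at 0.42 (edgeR adjusted p = 0.000652), and at 0.22 under the dendritic scaling (edgeR adjusted p = 0.0345). Syk, the kinase that CLEC9A signals through, fell by 0.41 on the log2 scale and Unc93b1, the chaperone of TLR3, by 0.34 (edgeR adjusted p = 0.000175 and 0.000405). Xcl1, the ligand of XCR1, was low, at means of 2.43 and 1.67 CPM, with a log2 fold change of -0.53 (edgeR adjusted p = 0.0819), and was called lower at -0.72 under the dendritic scaling (edgeR adjusted p = 0.0210). Crtam, Cd8b1 and Lck were low too, at means of 2.02, 5.75 and 13.3 CPM in C57BL/6, and the last 2 also stand in the T cell list. The part of other cells, macrophages among them, in the levels of the partners was not tested. Of 13 measured paralogs of the members, 1 was called higher and 7 lower, with a median of -0.70, and 1 higher and 9 lower under the dendritic scaling. Mrc1, the macrophage mannose receptor related to LY75, fell by 2.51 and Asah1, the ceramidase related to NAAA, by 0.82.

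The general machinery of cross-presentation was mixed. Of its 24 genes, which include peptide transporters, proteasome subunits and vesicle proteins, 11 were called higher and 5 lower, with a median of 0.10. The balance turned over under the dendritic scaling, where 6 were called higher and 10 lower, with a median of -0.10 beside -0.20 over all genes. The 6 were Tap1, Rab43, Psme1, Psme2, Psmb8 and Psmb9, which were called higher under both scalings. The 5 lower under TMM scaling were Rab34, Cybb, Cyba, Snap23 and Vamp8, all among the 10. B2m, the light chain of MHC class I, had a mean of 2054 CPM in C57BL/6 and a log2 fold change whose 95% interval ran from -0.11 to 0.11 (edgeR adjusted p = 0.994), and Calr, a chaperone of the same complex, had -0.03 (edgeR adjusted p = 0.768). Both were called lower under the dendritic scaling, at -0.20 and -0.23 (edgeR adjusted p = 0.0207 and 0.0380), close to the shift of all genes.

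Genes of other dendritic cells were set beside the members. Of 11 genes of conventional dendritic cells in general, 9 were called higher and 1 lower, with a median of 0.33, less than the 0.84 of the members. Flt3 rose from 466 ± 23.9 to 613 ± 12.8 CPM (log2 fold change 0.39, edgeR adjusted p = 3.52e-05) and Itgax by 0.22 (edgeR adjusted p = 0.00942). With the libraries scaled to this list itself, 4 of its genes were called higher and 2 lower, and Itgax was not called, at 0.02. Of 9 genes of type 2 cells, 0 were called higher and 5 lower, with a median of -0.40, and 8 were called without B6.SLE123 mouse 1. The 4 not called were Clec4a4 at 0.22 (edgeR adjusted p = 0.0596), Esam at -0.17, and Clec10a and Mgl2 at -0.40 each. With the dendritic scaling 0 of the type 2 genes were called higher and 7 lower. Esam and Clec10a were then called lower, at -0.37 and -0.59, whereas Clec4a4 at 0.02 and Mgl2 at -0.59 were not called. Sirpa, the surface counterpart of XCR1 on type 2 cells that macrophages also carry, fell from 1784 ± 85.4 to 950.5 ± 101 CPM (log2 fold change -0.91, edgeR adjusted p = 2.52e-06), and Clec12a fell by 1.30. Of 10 plasmacytoid genes, 2 were called higher and 4 lower. The 2 higher were Siglech at 0.45 and Pacsin1 at 0.95 (edgeR adjusted p = 0.0117 and 0.00122). Spib fell by 0.34, and Tcf4 had -0.15 (edgeR adjusted p = 0.0694) and was called lower, at -0.35, under the dendritic scaling. That scaling called 1 plasmacytoid gene higher, Pacsin1, and 5 lower, and Siglech lost its call at 0.26 (edgeR adjusted p = 0.110). Of 10 genes of mature dendritic cells, 8 were called higher and 0 lower, among them Fscn1 at 0.82 and Apol7c at 0.28. Under the dendritic scaling 5 were called higher and 1 lower, and Apol7c lost its call at 0.08 (edgeR adjusted p = 0.465).

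Marker genes of other cells differed between the strains as well, and their part in the members' levels was not tested. All 14 red pulp macrophage genes and all 4 marginal zone macrophage genes were called lower, with medians of -2.39 and -1.93, as in Vcam1 at -2.45, Csf1r at -2.18, Nr1h3 at -2.41 and Siglec1 at -1.77. Of 9 B cell genes 7 were called lower and 1 higher, where Cd22 rose by 0.34 and Ms4a1 had -0.09; under the dendritic scaling 8 were lower, Ms4a1 among them at -0.29, and Cd22 was not called. Of 8 erythroid genes 7 were called lower, with Hbb-bs at -3.03 and Hba-a1 at -2.24. All 14 proliferation genes were called higher, with a median of 0.97, led in level by Mki67 at 1.28 and Top2a at 1.10.

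The remaining lists moved less in 1 direction. Of 10 T cell genes 1 was called higher and 2 lower, or 6 in all without B6.SLE123 mouse 1, and the list summed to between 297 and 341 CPM in C57BL/6 and between 301 and 409 CPM in B6.SLE123, mostly Cd4 (log2 fold change 0.20). Of 9 NK cell genes 1 was called higher, or 4 without B6.SLE123 mouse 1 and 2 without mouse 3 of either strain, with Klrd1 at -0.04 and Klrk1 at -0.23. Under the dendritic scaling 1 was called higher and 5 lower, Klrd1 at -0.24 and Klrk1 at -0.43 among them, as were 1 and 4 of the T cell genes in turn. Of 8 monocyte genes 1 was called lower, or 3 without B6.SLE123 mouse 1 and 2 under the dendritic scaling, with Lyz2 at -0.20 and Ace at -0.12. Of 8 neutrophil genes 2 were called higher and 3 lower, or 3 in all without C57BL/6 mouse 1 or B6.SLE123 mouse 4, with Csf3r at -1.61 and S100a9 at -0.23. Of 6 plasma cell genes 2 were called higher and 2 lower, with Jchain at 1.10 and Xbp1 at -0.39. Of 12 interferon response genes 1 was called higher and 3 lower, with Irf7 at -0.44.

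**Figure D4:**
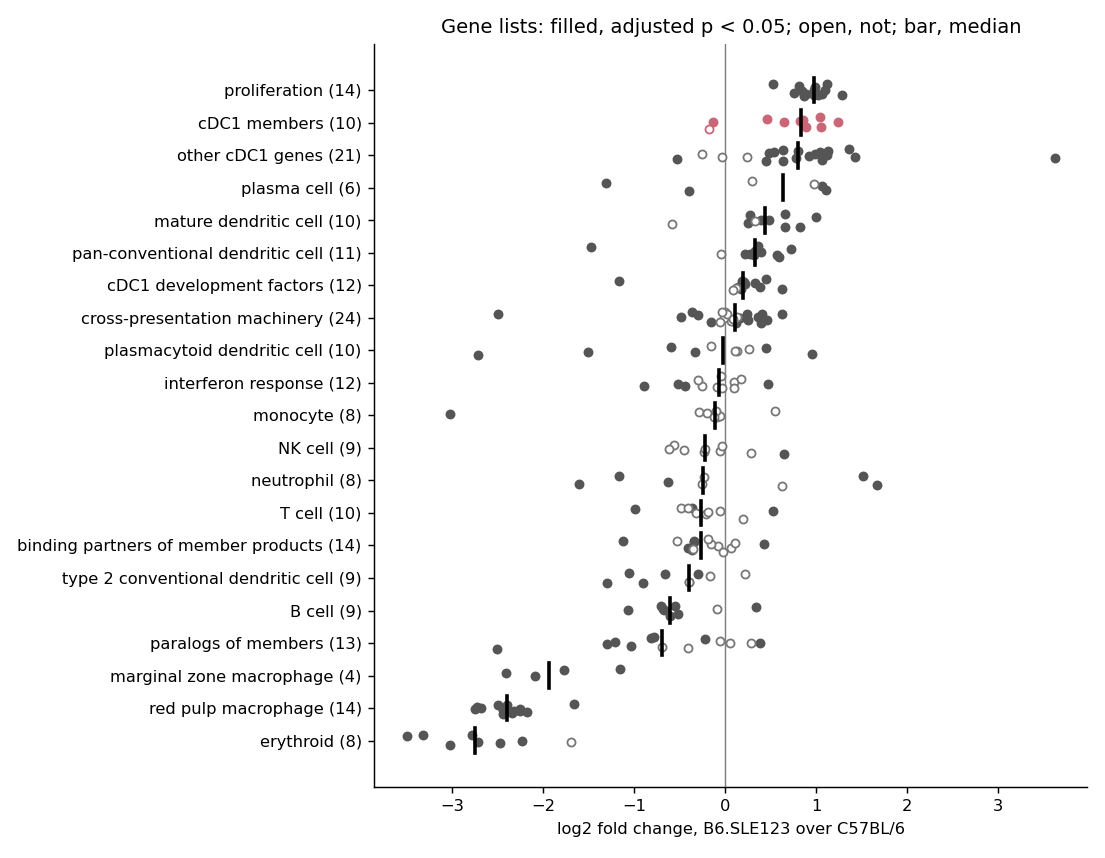
Log2 fold change, B6.SLE123 over C57BL/6, of each measured gene of 21 lists, ordered by the median (bar), with filled points for genes with an adjusted p below 0.05 and the number of measured genes in brackets. The members (red) have a median of 0.84 beside 0.79 for other cDC1 genes, and the proliferation list stands above and the macrophage and erythroid lists below them.

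The members lie on 8 chromosomes, with Cd8a and Clec9a together on chromosome 6 and Cadm1 and Xcr1 on chromosome 9, far apart. Batf3, the 1 member called lower, is the only member on chromosome 1. The positions of the Sle intervals were not compared with the members, so whether any member lies within an interval was not tested. Of the 10 tested genes nearest to each member, 5 on either side, between 0 (Cd8a) and 4 (Naaa) were called higher and between 1 (Ly75) and 6 (Cadm1) lower. Near Xcr1, the member that rose most, 1 neighbour was called higher and 3 lower.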

How the data were processed

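Stranded mRNA libraries were made for each of the 8 CD11c-positive samples. After trimming (cutadapt) and alignment to mm10 (STAR), the authors summarised reads per gene by featureCounts and deposited raw counts per gene and mouse without normalization. Whether counting used strand is not given in the sources used here. The authors' DESeq2 columns (mean level, fold change and its error, test statistic and p-values) were not used. Strain came from the sample names, since the number in the genotype field rises from mouse to mouse. Each gene has a median of at least 5 counts in 1 of the strains, so genes with lower counts were not tested. Pairs of mice within a strain differed beyond sampling noise, with a chi-square per degree of freedom of at least 4.96.

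The strain term was tested by the quasi-likelihood method of edgeR 4.0.16 in R 4.3.3 (TMM factors, no filter, Benjamini-Hochberg adjustment over 13786 genes). The SE is the size of the log2 fold change divided by the square root of F. RPKM used the exonic length in GENCODE M21, in which 13663 genes have the coordinates of the count table. Ratios were compared by exact permutation tests. On simulated data with 67 genes changed 1.5-fold, 86.6% were recovered, and 5 of 196 calls over all fold sizes were false. Only 67, 67 and 66 genes were changed there by 1.5-fold, 2-fold and 4-fold, beside 7356 called in these data. The simulated share of false calls therefore need not hold here. Alternatives were relative log expression factors, a low count filter, DESeq2 1.42.0, limma-voom (limma 3.58.1), the replicate number as a block, scaling to the list of genes of conventional dendritic cells in general, another second gene in the ratios, and each mouse left out. The members, lists, tests and named genes were chosen with earlier results of these data known. Named genes were all members, the 2 most abundant genes of each other list, the 3 genes of the other cDC1 list with the largest called change in each direction, and Irf8, Irf4, Cd8b1, Cd3e, Xcl1, Flt3 and Sirpa; 1 gene that this rule names is not reported here. Pianp, Tlr12 and Fkbp1b were added once their values had been seen, as the genes of that list that were not called, and Clec1b and Lrrc18 as genes that overlap a member. Napsa was likewise added as the gene of its list called lower, and Ticam1 as the partner called higher. So were Zeb2, Siglech and Pacsin1, the type 2 genes not called, the cross-presentation genes named by direction, and Crtam and Lck. Clec12a, Cd8b1, Lck and Tcf4 stand in 2 lists each.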

Additional observations from a re-analysis of the deposited data

Results flagged for a closer look

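In 26 groups of 4 mice tested for a value far from the others (each member and ratio in each strain), 0 passed Dixon's test, where chance gives about 1.3.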

How the results depend on the processing

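Of 492 values computed under alternatives, 446 gave the same call in the same direction or a count within 1.5 times the main one. The sign of 0 fold changes or ratio differences reversed, whereas a count could not be scored as reversed. Counts other than that of members called higher pool both directions. The cross-presentation count stayed at 16 under dendritic scaling, although 11 higher and 5 lower became 6 higher and 10 lower. Over all genes, 26.7% higher and 26.6% lower became 10.4% and 46.1%. The 8 members called higher kept their call in all 112 of their values, with an edgeR, DESeq2 or limma adjusted p of at most 0.0311 and a log2 fold change of at least 0.26. Genes called numbered 7356, and 7347 with relative log expression factors, 7100 with the filter, 7207 with DESeq2, 7376 with limma-voom, 7781 with scaling to dendritic cell genes and 6496 to 7013 without 1 mouse. Members called numbered 8 to 10 without 1 mouse. Under dendritic scaling, 4 in place of 10 development factors and 11 in place of 6 partners were called, as were 6 in place of 1 NK cell gene, 5 in place of 3 T cell genes, 2 in place of 1 monocyte gene and 6 in place of 10 genes of conventional dendritic cells in general; the cause was not tested. The log2 difference of the ratios ran from 0.69 to 0.95 for Xcr1 to Flt3, from 0.30 to 0.51 for Clec9a to Flt3 and from 0.83 to 1.28 for Cd8a to Cd3e without 1 mouse. With Zbtb46 the difference for Clec9a was 0.49. Between mice of the same number, the correlations of their deviations over 12799 genes were 0.0244, 0.133, -0.0212 and 0.157. Between mice of different numbers they ran from -0.113 to 0.115. Whether a common number pairs the mice was not tested. With the replicate number as a block, 7183 genes were called, with 8 in place of 5 type 2, 4 in place of 1 NK cell and 2 in place of 1 monocyte genes, Batf3 had -0.14 (edgeR adjusted p = 0.0631), and the differences of 0.82 for Xcr1 to Flt3 and 1.13 for Cd8a to Cd3e had an exact permutation p of 0.125, the smallest that 4 pairs allow.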
